A study of Mus musculus with 10 samples.

Results

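The genes described here are 36 genes of glycolysis and of the response to hypoxia, measured in the bone marrow (BM) of mice transplanted with fetal liver hematopoietic stem cells (FL-HSCs). They were listed by name, but with earlier results of these data known. The list holds 15 glycolytic enzymes, 6 transporters and regulators of glycolytic flux, 3 genes of the oxygen sensor (Hif1a, Egln1 and Egln3) and 12 other targets of hypoxia-inducible factor (HIF). A member counted as measured where a probe set of the array lists it as the only gene, and of several such probe sets the brightest over the 10 arrays was taken. This gave 33 members of 19938 genes in all, 12 of them enzymes. Gapdh is listed only on 25 probe sets together with other genes, so no value is given for it, and Gpi1 and Eno1 are named only.

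The VD(−) group comprised 5 arrays of BM RNA from C57BL6 recipients of FL-HSCs of embryos from vitamin D-deficient dams, and the VD(+) group comprised 5 arrays from recipients of FL-HSCs of embryos from vitamin D-sufficient dams. Each group had 3 single samples and 2 pools, and the sources do not say which mice went into the pools. The spread that a p-value here is set against is therefore one between arrays. According to the methods, recipients of both groups were vitamin D-sufficient and lethally irradiated before the transplant, and donor cells were mixed from male and female embryos, while the labels give mice aged 8 weeks of both sexes on either diet. The methods put recipients at 8 weeks of age at the transplant, so the age in the labels cannot be that at collection. The paper's text and a figure legend differ on the time from transplant to collection. The comparison addresses whether vitamin D deficiency of the fetus leaves a mark on gene expression in the marrow that its stem cells build in another animal. An array of whole marrow does not separate donor cells from the cells that the host keeps, and in such a bulk sample fewer cells of a type and less RNA per cell cannot be told apart.

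Glycolysis splits glucose into pyruvate in the cytosol, and the pyruvate is either reduced to lactate or oxidised in mitochondria. HIF1A is the oxygen-regulated subunit of a transcription factor: with oxygen present, prolyl hydroxylases mark it for degradation through the VHL ubiquitin ligase, and at low oxygen it binds DNA with ARNT and raises glucose transporters, glycolytic enzymes and angiogenic factors. Hematopoietic stem cells live in poorly oxygenated niches and lean on glycolysis, and neutrophils and activated macrophages are strongly glycolytic cells.

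Values are log2 signals after RMA, on which a difference between groups is a log2 fold change of VD(−) over VD(+). The array medians lay between 4.745 and 4.802 in VD(−) arrays and between 4.740 and 4.774 in VD(+) arrays, and the number of arrays limits the precision. A mean of 3 Y-linked genes was 5.31 for VD(−) pool 2, 6.64 for VD(−) replicate 1 and 6.80 for VD(−) pool 1, and between 2.25 and 2.56 in the other 7 arrays, so 3 arrays of VD(−) and 0 of VD(+) carry Y-linked signal. Those 7 arrays, all VD(+) arrays among them, thus do not show the mix of male and female donor cells that the methods describe. The sources do not give the sex of the cells per array. Although a treatment field of the labels names BM macrophages, the 10 neutrophil markers averaged between 11.67 and 12.06 in VD(−) arrays and between 11.77 and 11.98 in VD(+) arrays and lay above every array median. The 9 skeletal muscle markers averaged 6.70 in VD(−) pool 2, against 4.48 to 4.82 in the other arrays.

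The glycolysis and hypoxia genes as a group differed little between VD(−) and VD(+) HSC recipient BM. At an adjusted p under 0.05 from limma 0 of 33 members were called, against 0.0903% of all genes. At a nominal p under 0.05, 1 member (P4ha1) was higher in VD(−), where 4.05% of all genes were, and 0 were lower, where 2.95% of all genes were. At the thresholds of the methods, which ask for a ratio past a limit besides the nominal p, 0 members were higher (2.35% of all genes) and 0 lower (2.95% of all genes). All 5 VD(−) arrays lay above all 5 VD(+) arrays for 1 member (1.09% of all genes) and below them for 0 (0.632% of all genes). Log2 fold changes were positive for 19 members and negative for 14, with a median of 0.016 against 0.0010 over all genes.

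The intervals around these differences were narrow for most members. The 95% interval of the log2 fold change lay within a 1.5-fold change in either direction for 30 of 33 members (90.9%), against 94.9% of all genes. The exceptions were Bnip3, Adm and Ddit4. The SD within groups ran over the members between 0.060 and 0.382, with a median of 0.158, and its median over all genes was also 0.158. Adm, Car9 and P4ha2 had means under the median of every array, so little can be read from their levels.

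**Figure D1:**
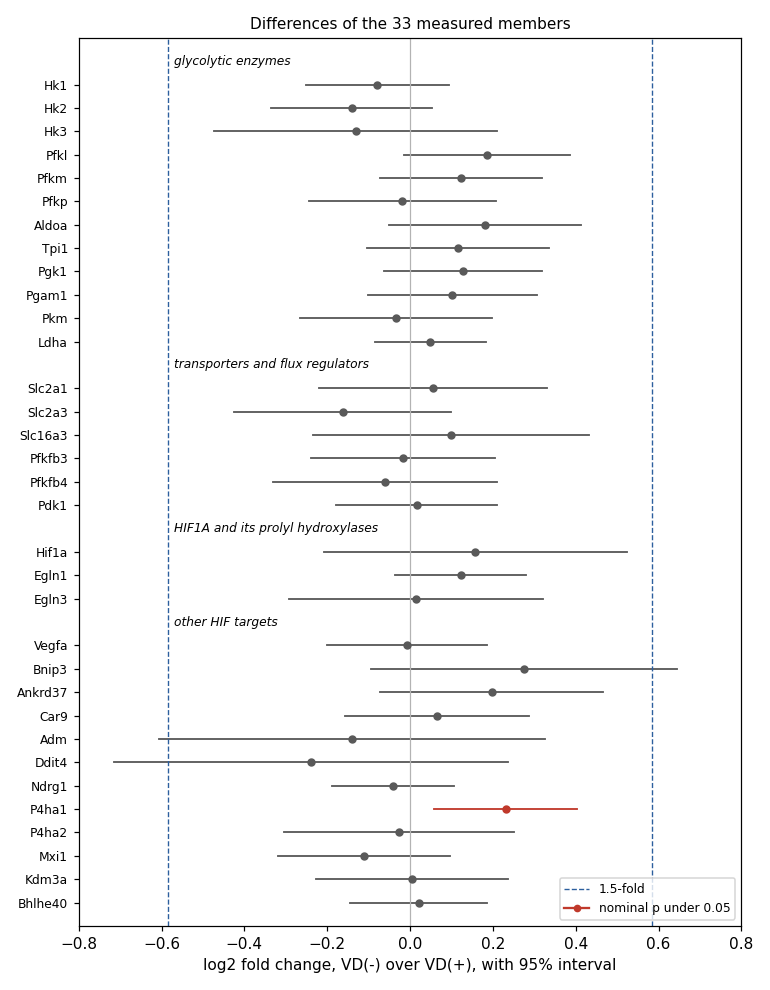
Log2 fold change of VD(−) over VD(+) HSC recipient BM (x axis) for each of the 33 measured members (rows, by role), with the 95% interval from limma and dashed lines at a 1.5-fold change. Only the interval of P4ha1, between 0.06 and 0.40, does not cross 0, and those of Bnip3, Adm and Ddit4 cross a dashed line.

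Among the glycolytic enzymes, 0 of 12 passed a nominal p in either direction, 7 had positive and 5 negative log2 fold changes, and all 12 intervals stayed within a 1.5-fold change. Their median log2 fold change was 0.076, and single values ran between −0.14 (Hk2) and 0.19 (Pfkl). Ldha, the lactate dehydrogenase subunit that turns pyruvate into lactate, had log2 values of 9.42, 9.46, 9.32, 9.35 and 9.49 in VD(−) replicates 1 to 3 and pools 1 and 2, and of 9.37, 9.40, 9.28, 9.40 and 9.35 in the matching VD(+) arrays. The groups overlapped, and the log2 fold change of 0.049 had a 95% interval between −0.085 and 0.18. Ldha had the smallest SD within groups of all members.

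The hexokinases, which trap glucose in the cell as its phosphate, had log2 fold changes of −0.079 for Hk1, −0.14 for Hk2 and −0.13 for Hk3, with intervals that all crossed 0. Hk1 lay between 9.83 and 10.16 in VD(−) and between 10.02 and 10.14 in VD(+), and Hk2, the insulin- and hypoxia-responsive isoform, lay between 5.25 and 5.66 in VD(−) and between 5.46 and 5.72 in VD(+). The VD(+) arrays fell inside the span of the VD(−) arrays for Hk1, and Hk2 was lowest in VD(−) pools 1 and 2. A second probe set of Hk1 was dimmer, with a mean of 7.59 over the 10 arrays, and gave −0.023 (SE 0.10). The number of the brighter one falls among those of genes on chromosome 14, such as Tkt and Zfp395, while Hk1 lies on chromosome 10. That of the dimmer one falls beside Hkdc1 on chromosome 10. The level of the brighter one may therefore be that of another locus, which was not tested. Hk3, the isoform of myeloid cells, spread widely in VD(−), at 6.72, 7.26, 6.89, 6.33 and 6.86 against 6.98, 7.12, 6.72, 7.09 and 6.81 in VD(+). The 3 isoforms of phosphofructokinase, the committed step of the pathway, gave 0.19 for Pfkl, 0.12 for Pfkm and −0.019 for Pfkp. Pfkp, the platelet-type isoform, lay between 6.12 and 6.65 in VD(−) and between 6.42 and 6.63 in VD(+). Pfkl, the liver-type isoform, had values of 5.41, 5.38, 5.70, 5.44 and 5.61 in VD(−) and of 5.50, 5.39, 5.14, 5.28 and 5.30 in VD(+), and its p of 0.0714 in the two-sided exact permutation test was the smallest of the enzymes (adjusted p = 0.734 from limma). Pfkm, the muscle-type isoform, lay between 6.07 and 6.37 in VD(−) and between 5.81 and 6.17 in VD(+) and was highest in VD(−) pool 2, the array with the high muscle markers, and the part of muscle RNA in its value was not tested.

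Aldoa, the aldolase that splits fructose bisphosphate, had values of 9.91, 10.28, 10.36, 9.88 and 10.17 in VD(−) and of 9.86, 10.06, 9.84, 9.998 and 9.93 in VD(+). In VD(−), replicates 2, 3 and pool 2 lay above all VD(+) arrays and replicate 1 and pool 1 among them, and the log2 fold change was 0.18 (SE 0.10, adjusted p = 0.774 from limma). Triose phosphate isomerase (Tpi1), phosphoglycerate kinase (Pgk1) and phosphoglycerate mutase (Pgam1), which act in turn in the later steps of the pathway, gave 0.12, 0.13 and 0.10, none past a nominal p. Tpi1 lay between 8.38 and 8.79 in VD(−) and between 8.35 and 8.72 in VD(+). Pgk1 lay between 9.60 and 9.86 in VD(−) and between 9.35 and 9.72 in VD(+). Pgam1 lay between 8.13 and 8.59 in VD(−) and between 8.14 and 8.38 in VD(+), and in all 3 the spans of the groups overlapped. Pkm, the pyruvate kinase that ends the pathway, lay between 9.51 and 9.91 in VD(−) and between 9.64 and 10.02 in VD(+) and gave −0.033 with an interval between −0.26 and 0.20. A second, dimmer probe set of Pkm gave −0.067 (SE 0.09). Pgk1 and Pgam1 each have further probe sets, one of which carries the same values as the one used, and near-identical copies of these genes elsewhere in the genome could share their signal.

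**Figure D2:**
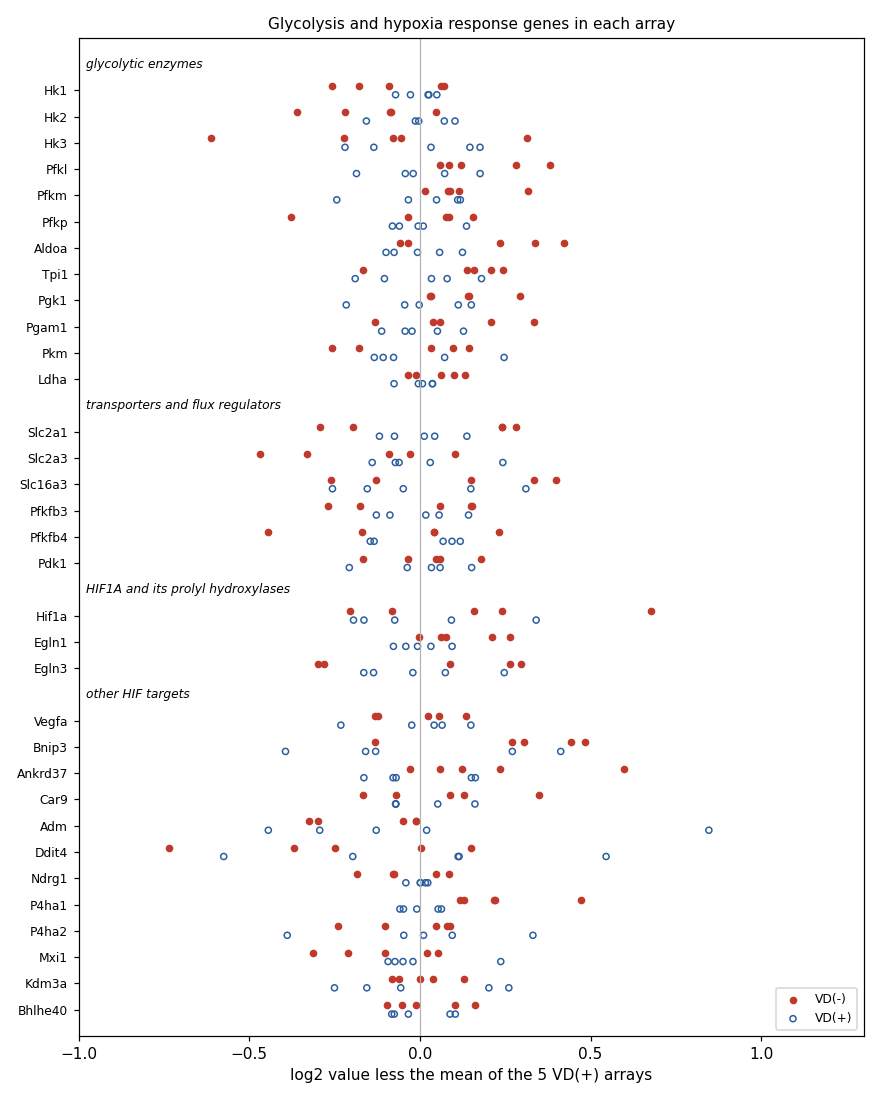
Log2 value of each member in each array less the mean of its 5 VD(+) arrays (x axis), with VD(−) arrays as filled points above and VD(+) arrays as open points below on each row. The 2 groups overlap in every row but that of P4ha1, and the VD(−) points spread wider than the VD(+) points for 23 of 33 members.

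Of the transporters and flux regulators, 3 had positive and 3 negative log2 fold changes, with 0 of 6 past a nominal p. Slc2a1, the glucose transporter GLUT1, had values of 6.18, 6.62, 6.66, 6.09 and 6.62 in VD(−) and of 6.30, 6.42, 6.39, 6.52 and 6.26 in VD(+). Both of its extremes lay in VD(−), where 3 arrays were above and 2 below all VD(+) arrays, and the log2 fold change of 0.055 (SE 0.12) had an interval between −0.22 and 0.33. Slc2a3, the high-affinity glucose transporter GLUT3, gave −0.16 and lay between 8.12 and 8.69 in VD(−) and between 8.45 and 8.83 in VD(+). Slc16a3, the lactate exporter MCT4, gave 0.098 and lay between 7.19 and 7.85 in VD(−) and between 7.19 and 7.76 in VD(+). For both, the lowest value was that of VD(−) pool 1. Pfkfb3 and Pfkfb4, which set the level of the phosphofructokinase activator fructose-2,6-bisphosphate, gave −0.017 and −0.060. Pfkfb3 lay between 6.54 and 6.96 in VD(−) and between 6.68 and 6.95 in VD(+), and Pfkfb4 lay between 6.18 and 6.86 in VD(−) and between 6.48 and 6.74 in VD(+). Pdk1, the kinase that shuts pyruvate out of the citric acid cycle, gave 0.016 and lay between 6.11 and 6.45 in VD(−) and between 6.07 and 6.43 in VD(+), spans of nearly the same width.

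Hif1a itself had log2 values of 6.74, 7.18, 7.62, 6.86 and 7.10 in VD(−) and of 6.78, 7.04, 6.87, 7.28 and 6.75 in VD(+). VD(−) replicate 3 was the highest array and VD(−) replicate 1 the lowest, the groups overlapped, and the log2 fold change was 0.16 (SE 0.17, 95% interval −0.21 to 0.52). Without VD(−) replicate 3 it was 0.028, and without VD(−) replicate 1 it was 0.25. Egln1, the prolyl hydroxylase PHD2 that senses oxygen, lay between 6.22 and 6.49 in VD(−) and between 6.15 and 6.32 in VD(+) and gave 0.12 (SE 0.07, adjusted p = 0.774 from limma), and Egln3, the hydroxylase PHD3 and itself a HIF target, lay between 5.42 and 6.01 in VD(−) and between 5.55 and 5.96 in VD(+) and gave 0.014 (SE 0.14). HIF1A is controlled largely through its protein, which an RNA array does not measure.

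Of the 12 other HIF targets, 1 was higher at a nominal p (4.05% of all genes) and 11 did not pass it. Their log2 fold changes lay between −0.24 (Ddit4) and 0.27 (Bnip3). P4ha1, a subunit of the collagen prolyl hydroxylase of the endoplasmic reticulum, had values of 5.41, 5.77, 5.52, 5.43 and 5.51 in VD(−) against 5.36, 5.29, 5.25, 5.24 and 5.35 in VD(+). It was the only member whose groups did not overlap, with VD(−) replicate 1 just above VD(+) replicate 1, and VD(−) replicate 2 stood above the rest. The VD(−) arrays averaged 5.53 ± 0.14 and the VD(+) arrays 5.30 ± 0.06 (SD, n = 5 each). The log2 fold change was 0.23 (SE 0.08, 95% interval 0.06 to 0.40). The exact permutation test, two-sided, gave a p of 0.00794, the smallest that 5 arrays against 5 allow, and the adjusted p of 0.565 from limma did not pass. P4ha1 passed a nominal p in 20 of 22 alternatives and missed it with the single arrays alone (0.27) and with the pools alone (0.18). P4ha2, the second such subunit, lay between 3.33 and 3.66 in VD(−) and between 3.18 and 3.90 in VD(+) and gave −0.026 (SE 0.13).

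Bnip3, a mitophagy receptor of the outer mitochondrial membrane, had the largest log2 fold change of the members over all 10 arrays, 0.27 (SE 0.17), and did not pass a nominal p (adjusted p = 0.788 from limma). Its values were 6.95, 6.77, 6.33, 6.91 and 6.73 in VD(−) and 6.88, 6.33, 6.73, 6.07 and 6.30 in VD(+). The arrays of both groups interleaved, and a second probe set of Bnip3 gave 0.18 (SE 0.09). The value moved with the arrays used, to 0.035 in the single arrays alone, 0.63 in the pools alone, 0.18 without VD(+) pool 1 and 0.087 without the 3 arrays with Y-linked signal. Ddit4, an inhibitor of mTORC1 also known as REDD1, lay between 5.16 and 6.05 in VD(−) and between 5.32 and 6.44 in VD(+), and its log2 fold change of −0.24 (SE 0.22) had the widest interval, between −0.72 and 0.24. The lowest value was that of VD(−) replicate 1 and the highest that of VD(+) replicate 1, and without them in turn the log2 fold change was −0.12 and −0.10. Ankrd37, a small HIF target of little known function, gave 0.20 (SE 0.12) and lay between 5.52 and 6.15 in VD(−) and between 5.39 and 5.71 in VD(+), and its highest value was that of VD(−) pool 2, the array with the high muscle markers. Without that array its log2 fold change was 0.096, and the part of muscle RNA in it was not tested.

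Vegfa, the main angiogenic growth factor that HIF induces, had values of 6.21, 6.39, 6.47, 6.21 and 6.36 in VD(−) and of 6.49, 6.40, 6.11, 6.31 and 6.38 in VD(+). Its groups overlapped, with a log2 fold change of −0.0073 and an interval between −0.20 and 0.19. Kdm3a, a histone demethylase, and Bhlhe40, a transcriptional repressor of the clock, lay close to 0 at 0.0049 and 0.021. Kdm3a lay between 6.75 and 6.96 in VD(−) and between 6.59 and 7.10 in VD(+), and Bhlhe40 lay between 5.15 and 5.41 in VD(−) and between 5.16 and 5.35 in VD(+). Mxi1, an antagonist of MYC, gave −0.11 and lay between 6.83 and 7.20 in VD(−) and between 7.05 and 7.38 in VD(+). Ndrg1, a stress-induced cytosolic protein, gave −0.041 and was the most even of these targets in VD(+), between 6.39 and 6.67 in VD(−) and between 6.54 and 6.602 in VD(+). Car9, a cell surface carbonic anhydrase, gave 0.066 and lay between 4.12 and 4.63 in VD(−) and between 4.21 and 4.44 in VD(+). Adm, the vasodilator peptide adrenomedullin, was the most uneven of the dim members, at 4.25 in VD(+) replicate 3 and between 2.95 and 3.42 in the other arrays of both groups.

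HIF binds DNA at a short core motif, and the windows of RefSeq (GRCm38.p6) that span 250 bases before to 50 after a start site were searched for ACGTG and GCGTG on both strands. Of 33 listed members with a window, 31 (93.9%) held at least 1 match, against 12628 of 27025 genes in all (46.7%). Counted over windows this was 39 of 50 (78.0%), against 14380 of 32851 (43.8%). These 33 include Gpi1, Gapdh and Eno1, for which no array value is given, and leave out Bhlhe40, Ndrg1 and Slc2a3, which have no window. Gpi1 and Tpi1 had no match. Many members are known HIF targets, the motif is short and common in GC-rich promoters, and a match does not show binding. The stretches below, all before the start site, show the matches in capitals, as either strand reads them, for the member past a nominal p (P4ha1), for 3 members described above, and for Fam162a, a HIF target described below.
P4ha1, chr10:59323126-59323295, plus strand: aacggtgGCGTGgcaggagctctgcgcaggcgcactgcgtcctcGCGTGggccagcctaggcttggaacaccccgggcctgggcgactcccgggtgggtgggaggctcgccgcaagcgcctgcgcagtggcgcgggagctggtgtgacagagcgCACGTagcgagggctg
Ldha, chr7:46845654-46845779, plus strand: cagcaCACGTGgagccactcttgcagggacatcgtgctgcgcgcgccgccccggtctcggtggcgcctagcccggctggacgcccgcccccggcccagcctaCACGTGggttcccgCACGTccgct
Slc2a1, chr4:119108675-119108725, plus strand: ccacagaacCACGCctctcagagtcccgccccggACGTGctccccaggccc
Bnip3, chr7:138909531-138909631, minus strand: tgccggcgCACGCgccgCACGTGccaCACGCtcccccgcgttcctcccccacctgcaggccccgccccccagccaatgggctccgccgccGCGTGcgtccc
Fam162a, chr16:36071571-36071651, minus strand: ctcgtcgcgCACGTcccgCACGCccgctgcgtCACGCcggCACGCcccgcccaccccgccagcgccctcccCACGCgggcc
Overlapping ones included, P4ha1 shows 3 matches here, Slc2a1 shows 2, and Ldha, Bnip3 and Fam162a show 5 each.

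Many members ordered the VD(−) arrays alike. VD(−) replicate 1 and VD(−) pool 1 were the 2 lowest VD(−) arrays for 16 of 33 members and the 2 highest for 1 (Bnip3), a pattern noticed after the values were seen. Over all genes these were the 2 lowest VD(−) arrays for 2623 of 19938 (13.2%). It held for 5 of 6 transporters and flux regulators (all but Pdk1), 5 of 12 enzymes (Hk3, Pfkp, Aldoa, Pgam1 and Pkm), Hif1a, Egln3 and 4 of 12 other targets. Outside the members, it held for 3 of 6 pentose phosphate genes (Pgd, Tkt and Taldo1) and 4 of 22 further glycolytic enzymes and isozymes. It also held for 7 of 36 further HIF targets, 1 of 13 oxygen sensing genes and 0 of 12 genes of pyruvate entry. VD(−) pool 1 held the lowest value of all 10 arrays for 9 members, and VD(−) replicate 2 the highest for 10. Both low arrays carry Y-linked signal, and they were also the 2 lowest VD(−) arrays for 5 of 7 T and NK cell markers (Cd3e, Cd3g, Cd3d, Ncr1 and Nkg7), 5 of 10 neutrophil markers and 2 of 4 promyelocyte markers. The T and NK cell markers averaged 5.69, 6.21, 6.48, 5.72 and 6.26 in VD(−) and 6.07, 5.78, 6.22, 5.98 and 6.19 in VD(+), with a summed level (log2 of the sum of their linear signals) between 9.70 and 10.34 in VD(−) and between 9.86 and 9.9998 in VD(+). The mean of the transporters and flux regulators was 6.87, 7.22, 7.14, 6.74 and 7.07 in VD(−), that of the neutrophil markers 11.75, 12.06, 11.86, 11.67 and 11.81. In VD(+) these means were 7.09, 7.12, 6.96, 7.01 and 6.91 for the transporters and flux regulators, and 11.83, 11.98, 11.79, 11.95 and 11.77 for the neutrophil markers. The summed level of the neutrophil markers was 15.393, 15.57, 15.42, 15.31 and 15.387 in VD(−). By that measure, pool 1 and pool 2 were the lowest VD(−) arrays, with replicate 1 next. The part of T and NK cells, of neutrophils and their precursors or of donor sex in the pattern was not tested.

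**Figure D3:**
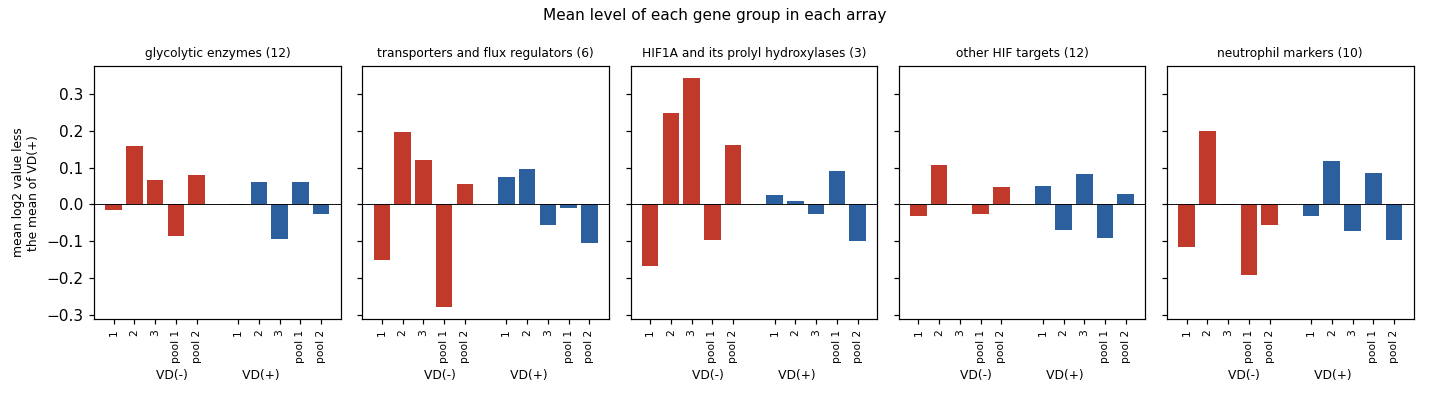
Mean log2 value of each group of members, and of the neutrophil markers, in each array less the mean of the 5 VD(+) arrays (y axis), with VD(−) bars at the left and VD(+) bars at the right of each panel and the number of genes in parentheses. VD(−) replicate 1 and pool 1 are the 2 lowest VD(−) arrays in every panel.

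Leaving out the 3 VD(−) arrays with Y-linked signal changed which members passed a nominal p. With VD(−) replicates 2 and 3 against the 5 VD(+) arrays, 6 of 33 members were higher at a nominal p under 0.05, against 3.08% of all genes in the same fit, and 0 had an adjusted p under 0.05. They were Aldoa, with a log2 fold change of 0.38 and the smallest adjusted p of the 6 (0.637 from limma), Hif1a (0.46), P4ha1 (0.35), Pgam1 (0.27), Slc2a1 (0.26) and Egln1 (0.24). For all of these but Egln1, the left-out VD(−) replicate 1 and pool 1 were the 2 lowest VD(−) arrays. Leaving out low VD(−) arrays raises the VD(−) mean, so this count is no separate result from the pattern above. The other setting took as a covariate over all 10 arrays the Y-linked mean less the log2 value of the X-linked gene Xist. Xist was at 7.76 in VD(−) replicate 1, 8.14 in VD(−) pool 1 and between 9.83 and 10.33 in the other arrays. With this covariate, the same 6 and Slc16a3 were higher at a nominal p, against 4.27% of all genes. Of the members, 0 passed the adjusted p from limma, of which the smallest was 0.237 (Aldoa). The covariate sets apart the same low arrays, so it too draws on the pattern above. This setting was an alternative, and only 2 VD(−) arrays remained in the first of these fits. Sex of the cells, transplant and array cannot be told apart in these 3 arrays.

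Beside the members, 89 further genes of the same pathways, also listed with earlier results of these data known, were measured. Of these, 6 were higher (4.05% of all genes) and 2 lower (2.95% of all genes) at a nominal p, 1 passed the adjusted p (0.0903% of all genes), and the median log2 fold change was 0.050. In the further glycolytic enzymes and isozymes 1 of 22 was lower at a nominal p (2.95% of all genes) and 0 were higher. Tigar, a phosphatase that lowers fructose-2,6-bisphosphate, was at 4.59, 4.64, 4.64, 4.64 and 4.62 in VD(−) against 5.08, 5.31, 4.62, 4.78 and 4.76 in VD(+), with VD(+) replicates 1 and 2 as the highest arrays and a difference of −0.28 (p = 0.0317 by the exact permutation test, adjusted p = 0.683 from limma). Its VD(−) values and that of VD(+) replicate 3 lay under the median of every array, so little can be read from its level. In the pentose phosphate pathway 0 of 6 passed, with Taldo1 at 0.091 and Rpe at 0.11 as those of the smallest p.

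In the entry of pyruvate into mitochondria 1 of 12 was higher at a nominal p (4.05% of all genes). Pdhx, the subunit that anchors one enzyme of the pyruvate dehydrogenase complex to its core, was at 5.64, 5.69, 5.69, 5.71 and 5.64 in VD(−) against 5.11, 5.21, 5.35, 5.49 and 5.47 in VD(+). The VD(−) arrays lay close together above all VD(+) arrays, at a difference of 0.35 (SE 0.08, adjusted p = 0.292 from limma). Among the HIF subunits and oxygen sensing genes 1 of 13 was higher at a nominal p (4.05% of all genes). Elob, elongin B of the VHL ubiquitin ligase, was at 10.52, 10.48, 10.42, 10.55 and 10.52 in VD(−) against 10.18, 10.38, 10.37, 10.34 and 10.29 in VD(+), which gives 0.19 (SE 0.06, adjusted p = 0.560 from limma).

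Of the further HIF targets, 4 of 36 were higher (4.05% of all genes) and 1 lower (2.95% of all genes) at a nominal p. Angptl4, a secreted inhibitor of lipoprotein lipase made in adipose tissue and induced by fasting, PPAR ligands and hypoxia, rose in recipients of VD(−) HSCs. It was at 6.59, 6.47, 6.63, 6.77 and 6.73 in VD(−) against 5.93, 6.15, 6.005, 5.93 and 6.25 in VD(+), without overlap. The VD(−) arrays averaged 6.64 ± 0.12 and the VD(+) arrays 6.05 ± 0.14 (SD, n = 5 each), and the log2 fold change was 0.59 (SE 0.09, 95% interval 0.39 to 0.78, adjusted p = 0.0376 from limma). Over 22 alternatives the log2 fold change stayed between 0.50 and 0.66, with a nominal p under 0.05 in all 22. The adjusted p held in 7 of them, and leaving out 1 array ended the call for 9 of the 10 arrays, all but VD(−) replicate 2, with adjusted p between 0.0571 and 0.140. The call also ended with the methods' t-test, the single arrays alone, the pools alone, the replicate block and both settings on Y-linked signal. The 4 measured adipocyte markers had a summed level between 8.09 and 9.82 in VD(−) and between 8.15 and 8.89 in VD(+), with 0 of 4 past a nominal p. The 7 stroma and bone markers had one between 10.39 and 11.03 in VD(−) and between 10.29 and 10.65 in VD(+). Of these 7, 2 (Cxcl12 and Lepr) were higher at a nominal p, against 4.05% of all genes. VD(−) pool 1 was the highest array for both lists and for Angptl4. VD(−) replicate 2 had the lowest adipocyte sum of all arrays (8.09), with Angptl4 at 6.47, while VD(+) pool 2 had a sum of 8.89, with Angptl4 at 6.25. The part of these cells in the level of Angptl4 was not tested.

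Fam162a, a mitochondrial HIF target linked to cell death, was at 7.66, 7.93, 7.81, 8.03 and 7.95 in VD(−) against 7.48, 7.52, 7.58, 7.61 and 7.55 in VD(+), which gives 0.33 (SE 0.08, adjusted p = 0.292 from limma). Mif, a cytokine that keeps macrophages in place and favours inflammation, was at 10.33, 10.29, 10.35, 10.31 and 10.41 in VD(−) against 10.09, 10.13, 10.08, 10.07 and 10.22 in VD(+). Its arrays did not overlap, at a difference of 0.22 (SE 0.06, adjusted p = 0.423 from limma), and its 2 other probe sets gave 0.24 and 0.23. The number of the probe set used for Mif falls among those of genes on chromosome 7, such as Cd22 and Egln2, while Mif lies on chromosome 10. Signal from another locus in it was not tested. Anln, an actin-binding protein of cytokinesis, was at 8.43, 8.50, 8.58, 8.39 and 8.55 in VD(−) against 8.33, 8.25, 8.41, 8.31 and 8.34 in VD(+) and gave 0.16 (SE 0.06, adjusted p = 0.649 from limma) with overlapping arrays. Selenbp1, a selenium-binding protein, was at 6.79, 6.83, 6.76, 6.78 and 6.74 in VD(−) against 6.98, 6.88, 7.07, 6.92 and 7.17 in VD(+), which gives −0.23 (SE 0.07, adjusted p = 0.523 from limma). All 5 arrays of one group lay beyond all 5 of the other for 5 of the 89 genes upward in VD(−), against 1.09% of all genes, and for 1 downward, against 0.632% of all genes.

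**Figure D4:**
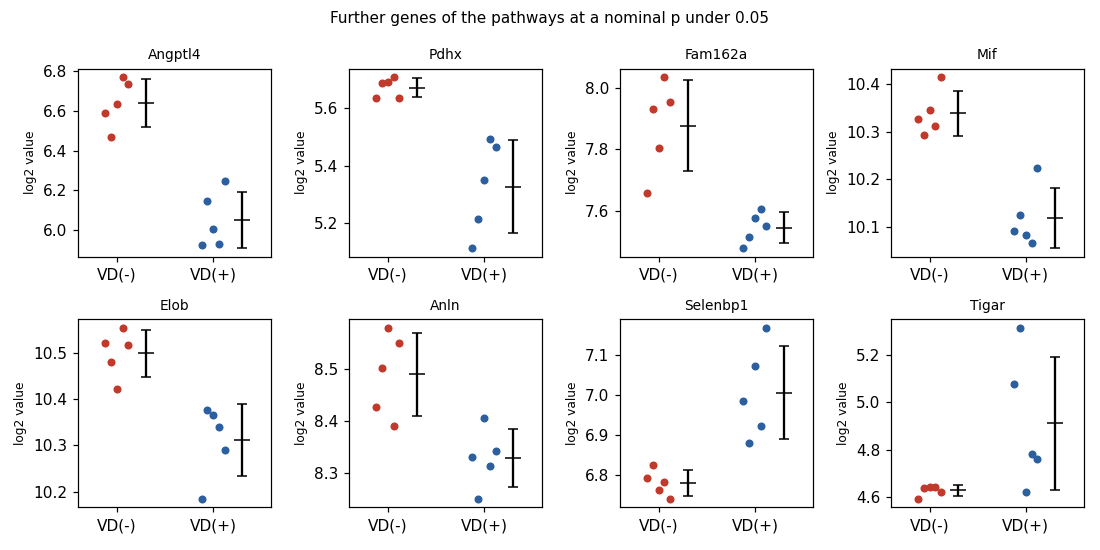
Log2 values of the 8 further pathway genes at a nominal p under 0.05, with the 5 VD(−) arrays at the left and the 5 VD(+) arrays at the right of each panel and the mean with its SD as a bar beside the points. Angptl4, with means of 6.64 in VD(−) and 6.05 in VD(+), is the only one past the adjusted p, and the groups overlap for Anln and Tigar.

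Some blood cell markers passed a nominal p, and 0 of the B cell, macrophage and monocyte markers passed the adjusted p. All 7 measured B cell markers had negative log2 fold changes, 3 of them past a nominal p (Ms4a1, Pax5 and Cd22), against 2.95% of all genes, with a summed level between 10.53 and 11.26 in VD(−) and between 10.68 and 11.35 in VD(+). All 10 macrophage and monocyte markers had positive log2 fold changes, 2 of them past a nominal p (Cd68 and Ccr2), against 4.05% of all genes, with a summed level between 11.97 and 12.49 in VD(−) and between 11.65 and 12.05 in VD(+). Of the 6 measured erythroid markers 1 (Klf1) was higher at a nominal p, and of the 9 proliferation markers 1, against 4.05% of all genes. All 4 measured megakaryocyte markers had negative log2 fold changes, with 0 past a nominal p. Of the neutrophil, promyelocyte, T and NK cell markers 0 passed a nominal p. The part of any of these cells in the values of P4ha1, Mif and the other genes named was not tested.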

How the data were processed

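RNA of recipient BM was analysed on 10 arrays, 5 VD(−) and 5 VD(+), grouped by the sample labels. The deposited values are log2 signals. The authors used Partek Genomics Suite and, per the submitters' processing notes, RMA: background correction, quantile normalization and a summary over probes, which removes differences in total RNA between arrays. A miRNA array is named in the methods, but the probe sets are those of a whole-transcript mouse gene array. The genome build behind the probe sets is not given in the sources used here. Of 35556 probe sets, 21789 list 1 gene, 1621 several and 12146 none, and only the first kind was named. Of these, 21698 had their identifiers found in a current gene table, with 0 symbols changed.

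Differences were tested two-sided in limma 3.58.1 (lmFit and eBayes, R 4.3.3) over all probe sets, with Benjamini-Hochberg adjusted p-values, and single genes also by an exact permutation test. Nominal p-values are given as a description beside the share of all genes. The script was tested on simulated data. Members and gene lists were chosen with earlier results of these data known. Named with values in every array are members past a nominal p or without overlap, and Hif1a, Ldha, Slc2a1 and Vegfa. Hk3, Pfkl, Aldoa and Bnip3 were added after their values were seen. Of each further list, the genes past a nominal p or else the 2 of smallest p are named. Alternatives were the t-test of the methods, the brighter probe sets, cyclic loess, array weights, a trended robust spread, pool as covariate, singles alone, pools alone (chosen after seeing the data), replicate block and probe set means. Further ones were the Y-linked signal (less Xist) as covariate, the arrays with Y-linked signal left out, and each array left out.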

Additional observations from a re-analysis of the deposited data

Results flagged for a closer look

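In groups of 5 arrays, 1 array can stand apart from the other 4. Of 66 groups tested for the members (33 genes in VD(−) and in VD(+)), 3 held such an array by the 95% critical value of Dixon, and chance gives about 1 in 20. Tpi1 was at 8.38 in VD(−) replicate 3, below the other VD(−) arrays at 8.68 to 8.79, and without this array its log2 fold change was 0.19, against 0.12 with it (adjusted p = 0.653 from limma without it). P4ha1 was at 5.77 in VD(−) replicate 2, above the other VD(−) arrays at 5.41 to 5.52, and without this array its log2 fold change was 0.17 (adjusted p = 0.683 from limma). Mxi1 was at 7.38 in VD(+) replicate 1, above the other VD(+) arrays at 7.05 to 7.12, and without this array its log2 fold change was −0.052, against −0.11 with it. Of the 20 groups tested for the further pathway genes named, 0 held such an array.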

How the results depend on the processing

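Over all 22 alternatives, 0 members passed an adjusted p under 0.05 from limma or the methods' t-test, and the smallest adjusted p was 0.237 (Aldoa, Y-linked signal as a covariate). The number of members higher at a nominal p was 1 as reported (4.05% of all genes) and 0 with the single arrays alone (1.84%). With the mean of all probe sets it was 2 (Bnip3 and P4ha1, against 4.50% of all genes). With array weights it was 3 (Pfkl, Bnip3 and P4ha1, against 3.98%). Without the 3 arrays with Y-linked signal it was 6 (3.08%), and with that signal as a covariate 7 (4.27%). Leaving out each array in turn gave 1 to 3, where 3.14% to 4.35% of all genes were higher. It was 2 without VD(−) replicate 2, VD(−) replicate 3 or VD(−) pool 1, and 3 without VD(+) replicate 1. The number lower at a nominal p was 0 except with the pools alone, where it was 1 (Hk2). Fewer arrays enter the fits of singles or pools alone, and otherwise the cause was not tested. The median log2 fold change lay between 0.021 and 0.14 for the enzymes and between −0.036 and 0.091 for the other members. No member was called in a direction, so none could reverse a call, but 20 of 33 changed sign in at least 1 alternative and 13 kept it. Same-numbered arrays of the groups did not deviate together (correlations −0.052 to 0.061), so the numbers do not pair them, and the replicate block left 1 member higher and 0 lower at a nominal p. With 5 arrays a group, the 95% intervals of 3 members reach past a 1.5-fold change, and differences within such intervals were not detectable here.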
